A study of Homo sapiens with 6 samples.

Results

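The histone genes on the array were taken as every probe set whose gene symbol in the platform annotation names a member of the histone gene clusters or of the H1 family. The rule found 78 of 54675 probe sets, which carry 69 symbols. By type they were 13 H1, 16 H2A, 20 H2B, 10 H3 and 16 H4 probe sets, and 2 that list both H3 and H2A genes. The remaining 1 is for an antisense RNA, H1-10-AS1, which is no histone mRNA. It belongs to none of the histone types below, but the counts and medians over all histone probe sets include it. A single symbol was given for 58 of the 78 and several symbols for 20, and 3 of the 58 belong to pseudogenes (H1-9P, H2AC5P and H4C10P). Probe sets with several symbols are named below by the number of genes they list, because their signal cannot be assigned to any single gene.

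The study exposed DMS-53 cells, an established human small cell lung cancer line, for 24 h to 250 µM DFO (desferrioxamine, an iron-binding siderophore) or 25 µM Dp44mT (a thiosemicarbazone chelator that crosses membranes and also binds copper), or kept them in RPMI control medium. Total RNA of each group was hybridised to 2 Affymetrix U133 Plus 2.0 arrays, numbered set 1 and set 2. Whether the sets came from separate cultures is not stated, so every p-value rests on a spread between arrays that may be technical. Per the series' design text, earlier work had shown iron-responsive genes to go up at these doses, and DFO was given at the higher dose because it enters cells poorly.

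Histones package DNA into nucleosomes. H2A, H2B, H3 and H4 form the core, and H1 binds the linker DNA between cores. Most genes of the clusters are replication-dependent: they are transcribed mainly in S phase, when new DNA must be packaged, and their mRNAs end in a stem-loop bound by SLBP instead of a poly(A) tail. Replacement histones such as H1-10 are made outside S phase from ordinary polyadenylated mRNAs. Iron enters this biology at ribonucleotide reductase, the iron-containing enzyme that supplies deoxyribonucleotides for DNA synthesis. The labels give only the manufacturer's standard labelling protocol, and the primer is not given in the sources used here. A signal of a replication-dependent histone on these arrays may therefore reflect only those transcripts that the labelling can reach.

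Values below are log2(intensity + 16), quantile normalised over the 6 arrays, unless they are named as deposited intensities. A probe set was tested if its mean lay at or above 5.55, the 25th percentile of all probe sets. This left 49 of the 78 histone probe sets: 11 H1, 11 H2A, 11 H2B, 6 H3 and 8 H4, the antisense RNA and 1 that lists H3 and H2A genes. Differences are those of group means in limma, with all p-values adjusted over 40960 probe sets and a call at an adjusted p under 0.05. The deposited intensities had a median of 85.5 and 63.0 on the DFO arrays, 83.6 and 49.9 on the Dp44mT arrays, and 88.9 and 88.8 on the control arrays, so the second chelator arrays were the dimmest. Replicate arrays correlated over the probe sets tested, which are not independent replicates, at 0.907 in DFO, 0.886 in Dp44mT and 0.97 in control. The neuroendocrine markers UCHL1, CHGA, SYP, NCAM1, GRP, INSM1 and ENO2 all passed the filter, but some differed between the groups. ENO2 rose in both chelators, by 1.74 in DFO and 2.03 in Dp44mT (limma adjusted p = 0.0426 and 0.0217). INSM1 stood at −2.21 in DFO (adjusted p = 0.0523) and fell in Dp44mT, at −3.37 (adjusted p = 0.0153). NCAM1 stood at −1.33 and −1.88 and GRP at −0.94 and −1.33, and neither passed. The part of these markers in the histone values was not tested. In bulk RNA, fewer cells in S phase and less histone mRNA in each cell cannot be told apart.

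Promoters of 4 genes are shown because their probe sets had some of the larger negative differences within the H2B, H4 and H1 types. They were chosen after the values were seen. Each run holds the 250 bases before the transcription start in RefSeq (GRCh38.p14), 5′ to 3′ on the gene's strand. Capitals mark every match to CCAAT (the CCAAT box), TATAAA (the TATA box), ATTTGCAT (the octamer, bound by POU2F1, also called Oct-1) and ACGTG (the core of the hypoxia response element), on either strand. H2BC12 lies on the minus strand at chr6:27146859-27147108, H2BC5 on the plus strand at chr6:26157871-26158120, H4C13 on the minus strand at chr6:27873535-27873784 and H1-10 on the minus strand at chr3:129316287-129316536. For H2BC12 and H2BC5, which have more than 1 start in the table, the first was taken.
H2BC12: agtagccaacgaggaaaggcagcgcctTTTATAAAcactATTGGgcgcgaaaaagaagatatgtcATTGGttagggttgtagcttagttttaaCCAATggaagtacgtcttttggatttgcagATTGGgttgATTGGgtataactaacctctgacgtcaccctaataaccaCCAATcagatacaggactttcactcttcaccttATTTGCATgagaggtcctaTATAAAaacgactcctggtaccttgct
H2BC5: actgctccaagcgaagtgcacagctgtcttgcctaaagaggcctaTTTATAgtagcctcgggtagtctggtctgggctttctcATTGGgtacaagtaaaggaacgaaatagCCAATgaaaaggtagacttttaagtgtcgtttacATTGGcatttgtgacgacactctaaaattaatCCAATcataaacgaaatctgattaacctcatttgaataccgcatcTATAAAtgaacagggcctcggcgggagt
H4C13: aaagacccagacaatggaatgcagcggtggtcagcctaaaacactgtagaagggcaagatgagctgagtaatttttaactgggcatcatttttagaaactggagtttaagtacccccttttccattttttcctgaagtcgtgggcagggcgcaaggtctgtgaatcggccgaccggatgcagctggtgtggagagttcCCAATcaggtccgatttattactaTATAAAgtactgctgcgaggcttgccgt
H1-10: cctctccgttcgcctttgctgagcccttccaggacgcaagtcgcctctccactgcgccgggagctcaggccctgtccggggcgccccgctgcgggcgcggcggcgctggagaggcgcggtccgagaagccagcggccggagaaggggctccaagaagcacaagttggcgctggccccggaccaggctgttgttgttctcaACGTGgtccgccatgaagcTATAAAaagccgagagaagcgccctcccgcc

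The elements were spread unevenly over the histone types. A promoter was found for 59 of the 69 member symbols, and the table held 67 histone genes in all. Each histone gene was counted once, by its first start, whereas the 35116 promoters of all genes can hold several starts of 1 gene. A CCAAT match lay in the 250 bases of 18 of 18 H2B, 16 of 16 H2A and 11 of 11 H3 genes, in 8 of 9 H1 genes and in 3 of 13 H4 genes, against 32% of 35116 promoters of all genes. The octamer was found in 14 of 18 H2B and 11 of 16 H2A genes, and in 1.63% of all promoters. H2A and H2B genes often stand head to head, so that many of these windows overlap and the same element can be counted for both. The octamer was in 1 of 11 H3, 0 of 9 H1 and 0 of 13 H4 windows. The TATA box was in 43 of 67 histone promoters (64.2%), against 10.7% of all promoters. Of the 4 elements, the H1-10 window held the TATA box and the hypoxia core. The hypoxia core was found in 9 of 67 histone promoters (13.4%), including that of H1-10, against 18.5% of all promoters. A match of letters is a description and no evidence of binding.

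In DFO, 0 of the 49 histone probe sets tested passed in limma in either direction, where 0.588% of all probe sets passed (0.569% higher and 0.0195% lower in DFO). At an unadjusted p under 0.05, 4 were lower and 0 were higher than in control, beside 5.97% lower and 5.09% higher among all probe sets. The smallest adjusted p was 0.13. Among those tested, both DFO arrays lay below both control arrays for 22 of 49 and above them for 0, where 27.8% and 17% of all probe sets tested did so. Without scaling between arrays, the calls over all probe sets were 24 higher and 7 lower, against 233 and 8 with it. The 49 differences had a median of −0.17 (range −1.24 to 1.21), and the median over all probe sets tested was −0.04. Counted without the filter, both DFO arrays lay below both control arrays for 30 of the 78 (38.5%) and above them for 3 (3.85%), where 25.9% and 16.6% of all probe sets did so. Over the 49, the 95% intervals, not adjusted for the number of probe sets tested, had a median half-width of 0.69. Differences smaller than about that size could not be told from 0 for a typical member. A call needed more: H1-10, at −1.24 with a limma adjusted p of 0.13, was not called.

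In Dp44mT, again 0 of the 49 passed in limma, where 1.64% of all probe sets passed (1.07% higher and 0.564% lower in Dp44mT). At an unadjusted p under 0.05, 9 were lower and 1 was higher, beside 14.5% lower and 7% higher among all probe sets. The smallest adjusted p was 0.0673. Among those tested, both Dp44mT arrays lay below both control arrays for 17 of 49 and above them for 8, where 32.8% and 28.5% of all probe sets tested did so. The calls over all probe sets, 439 higher and 231 lower, were 15 and 24 without scaling, 183 and 180 with array medians subtracted, and 195 and 166 with linear scaling. The median difference was −0.07 (range −1.42 to 1.48), against 0.01 over all probe sets tested. Without the filter, both Dp44mT arrays lay below both control arrays for 22 of the 78 (28.2%) and above them for 12 (15.4%), beside 30% and 27.3% of all probe sets. The count below control was thus near that of all probe sets.

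The histone types differed in where their values lay, and H2B had the lowest medians in both comparisons. In DFO the medians were −0.10 for H1, −0.00 for H2A, −0.61 for H2B, −0.24 for H3 and −0.13 for H4. In Dp44mT they were 0.21 for H1, 0.09 for H2A, −0.88 for H2B, −0.10 for H3 and −0.27 for H4. No test of the difference between types was made, because probe sets of 1 type share sequence and are not independent. Both comparisons also share the same 2 control arrays.

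**Figure D1:**
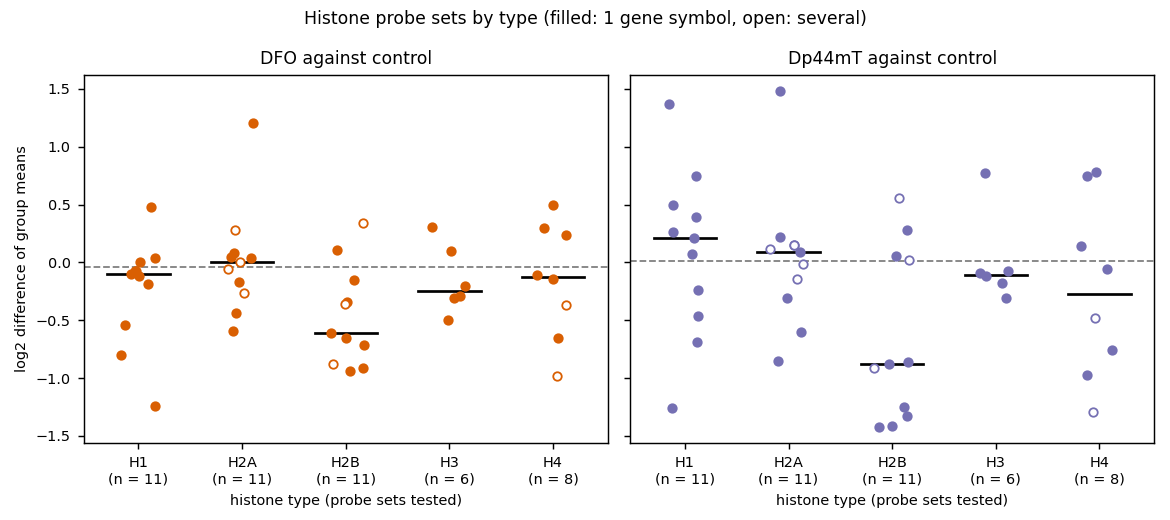
Log2 difference of group means (y axis) for the histone probe sets tested, by histone type (x axis), in DFO against control (left) and Dp44mT against control (right). Each point is a probe set (filled with 1 gene symbol, open with several), the black line is the type's median and the dashed line the median of all probe sets tested; the H2B medians, −0.61 and −0.88, are the lowest.

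Linker histones come first. H1-10, the replacement linker histone also called H1X, had the smallest p of all members. The ID of its only probe set marks possible binding of related transcripts. It read 8.46 and 8.29 on the DFO arrays, 8.40 and 8.32 on the Dp44mT arrays, and 9.84 and 9.40 on the control arrays. All 4 chelator arrays lay below both control arrays, and the gap was wider than the spread within any group. The difference was −1.24 in DFO (SE 0.23, 95% interval −1.81 to −0.68, limma adjusted p = 0.13, n = 2 arrays a group) and −1.26 in Dp44mT (SE 0.23, interval −1.83 to −0.69, limma adjusted p = 0.0673). The deposited intensities were 460 and 222 in DFO and 347 and 171 in Dp44mT, against 1050 and 916 in control. The Dp44mT value passed under 3 other settings: a pseudocount of 64 (−1.15, limma adjusted p = 0.0413), a filter at the 50th percentile (adjusted p = 0.0472) and a variance trend (adjusted p = 0.0371). Over every setting run, its adjusted p ranged from 0.0263, with crossed control numbers as a block, to 0.435, without the first control array. The probe set of the antisense RNA at the same locus, H1-10-AS1, stood at −0.37 in DFO and 0.01 in Dp44mT (limma adjusted p = 0.63 and 0.977).

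The other H1 probe sets included germ-line forms. Whether these transcripts are present in the cells was not tested. The deposited intensities of H1-8 ran from 40.8 to 149, beside array medians of 49.9 to 88.9. H1-8, the oocyte linker histone, read 6.34 and 5.98 in DFO, 6.66 and 6.34 in Dp44mT, and 6.80 and 7.12 in control. Its difference was −0.80 in DFO (SE 0.25, adjusted p = 0.338) and −0.46 in Dp44mT (SE 0.25, adjusted p = 0.334). H1-7, a linker histone of spermatids, had 2 probe sets tested. The first read 6.04 and 6.21 in DFO, 6.96 and 8.03 in Dp44mT, and 5.69 and 6.56 in control. Both Dp44mT arrays lay above the control arrays in that probe set, with a difference of 1.37 (SE 0.45, adjusted p = 0.174), whereas DFO stood at 0.00. The second H1-7 probe set gave −0.07 in DFO and 0.50 in Dp44mT (adjusted p = 0.953 and 0.387). H1-6, also with 2 probe sets tested, stood at −0.07 and 0.48 in DFO and at 0.26 and 0.75 in Dp44mT. The replication-dependent linker genes H1-1, H1-2, H1-3 and H1-5 lay between −0.54 and 0.04 in DFO and between −0.69 and 0.39 in Dp44mT. H1-4 was below the filter.

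**Figure D2:**
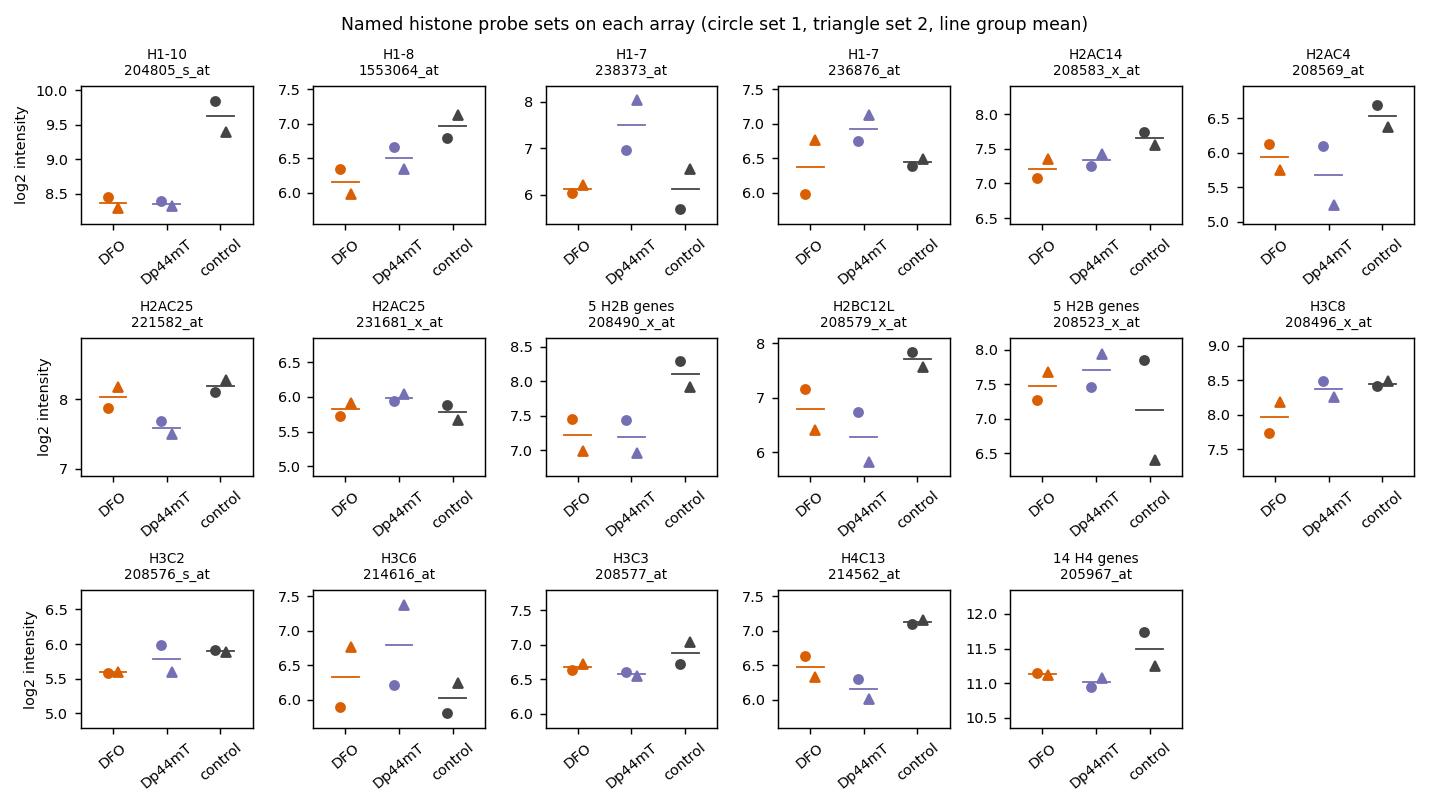
Normalised log2 intensity (y axis, at least 2 units tall in each panel) of the 17 named histone probe sets on each array of the DFO, Dp44mT and control groups (x axis). Circles are set 1, triangles set 2 and lines group means. H1-10, H4C13, H1-8, H2AC14, H2AC4, H2BC12L and H3C3 show all 4 chelator arrays below both control arrays. So do the panel of 14 H4 genes and 1 of the panels of 5 H2B genes. The first H1-7 probe set and H3C6 differ by over 1 unit between the Dp44mT arrays.

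H2B, which pairs with H2A at the outside of the nucleosome core, had 6 of 11 probe sets lower in Dp44mT at an unadjusted p under 0.05 and 1 of 11 in DFO, with 0 called in either, beside 14.5% and 5.97% of all probe sets. The DFO count was near that of all probe sets. H2BC12 read 8.31 and 7.53 in DFO, 7.78 and 6.63 in Dp44mT, and 8.70 and 8.56 in control. All 4 chelator arrays lay below control, and the Dp44mT arrays differed from each other by more than the 2 control arrays did. Its difference was −0.71 in DFO (SE 0.46, interval −1.85 to 0.44, adjusted p = 0.662) and −1.42 in Dp44mT (SE 0.46, interval −2.57 to −0.28, adjusted p = 0.167). H2BC12L, a close copy of H2BC12 on another chromosome, read 7.16 and 6.41 in DFO, 6.74 and 5.83 in Dp44mT, and 7.83 and 7.57 in control. Its differences were −0.91 (SE 0.40, adjusted p = 0.507) and −1.41 (SE 0.40, adjusted p = 0.14). The ID of the H2BC12L probe set marks it as able to bind related transcripts, so the signals of the 2 genes cannot be kept apart.

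Of the 11 H2B probe sets, 9 lay below 0 in DFO and 7 in Dp44mT. A probe set that lists 5 H2B genes read 7.45 and 6.99 in DFO, 7.43 and 6.96 in Dp44mT, and 8.29 and 7.91 in control. It stood at −0.88 in DFO (SE 0.29, adjusted p = 0.369) and −0.91 in Dp44mT (SE 0.29, adjusted p = 0.166). Another probe set for the same 5 genes did not follow it: it read 7.27 and 7.68 in DFO, 7.46 and 7.93 in Dp44mT, and 7.85 and 6.41 in control, a difference of 0.34 and 0.56 with groups that overlapped. H2BC5 had −0.65 and −0.61 in DFO and −0.86 and −1.25 in Dp44mT over its 2 probe sets. H2BC6 stood at −0.94 in DFO and −1.33 in Dp44mT, and H2BC15 at −0.34 and −0.88. H2BC14 stood at −0.15 in DFO and at 0.28 in Dp44mT, where both arrays lay above both control arrays. A probe set that lists H2BC11 and H2BC8 stood at −0.36 and 0.02. H2BC21, an H2B gene of the chromosome 1 cluster, read 6.75 and 7.28 in DFO, 7.19 and 6.73 in Dp44mT, and 6.87 and 6.95 in control, and its intervals ran from −0.59 to 0.80 and from −0.64 to 0.75.

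The H2B medians were lower in the second set of arrays than in the first. Within set 1 the H2B median was −0.39 in DFO and −0.82 in Dp44mT, and within set 2 it was −0.83 and −0.95. These differences pair arrays by set number alone, and the test used no pairing. The deviations of same-numbered arrays correlated at −0.23 for DFO and control and at −0.33 for Dp44mT and control. With both dim set 2 chelator arrays left out, the H2B medians were −0.36 and −0.67. The DFO median was −1.06 without the first DFO array and −0.36 without the second. Without IDs that mark possible binding of related transcripts, 3 H2B probe sets remained in the test, with medians of −0.34 in DFO and −0.88 in Dp44mT. Over all 20 H2B probe sets with no filter the medians were −0.46 and −0.36. With the filter ignored, both arrays lay below both control arrays for 11 of all 20 H2B probe sets in DFO and for 11 in Dp44mT. That is 55% each, beside 25.9% and 30% of all probe sets. Among the 11 tested, they did so for 5 in DFO and 7 in Dp44mT (45.5% and 63.6%), beside 27.8% and 32.8% of all probe sets tested. In DFO the shares for tested H1, H2A, H3 and H4 were 45.5%, 27.3%, 66.7% and 37.5%. The DFO count was thus not particular to H2B. In Dp44mT those shares were 27.3%, 27.3%, 16.7% and 25%. The 9 H2B probe sets below the filter, untested, ran from −0.93 (H2BC9) to 0.05 (H2BC1) in DFO. In Dp44mT they ran from −1.49 (H2BC9) to 0.10 (H2BC17). The ID of the H2BC9 probe set marks possible binding of related transcripts, and its deposited intensity on the second Dp44mT array was 0.032, at the floor. Whether brightness of the arrays had a part in the H2B values was not tested.

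**Figure D3:**
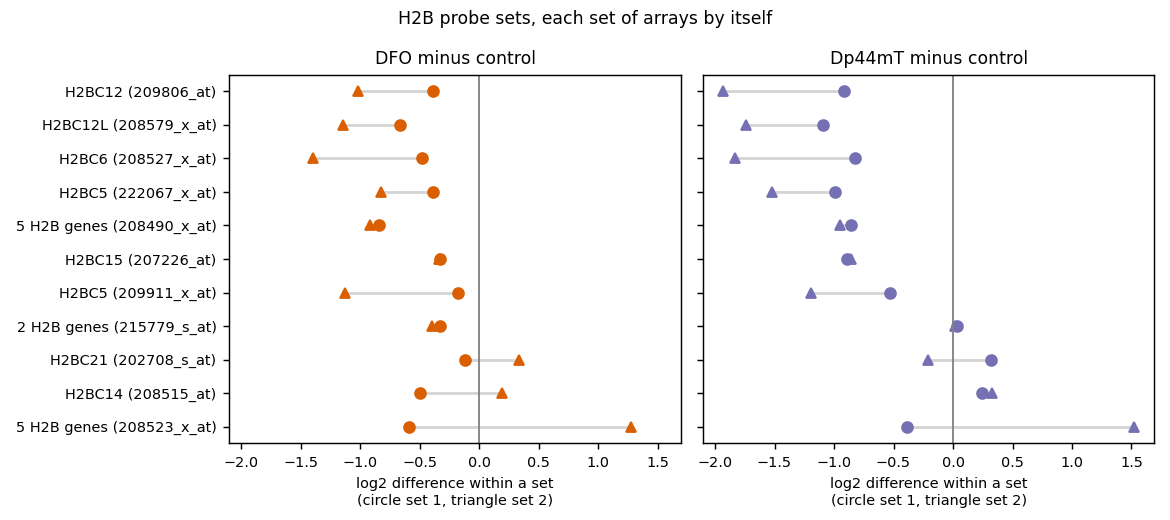
Log2 difference from the control array of the same set (x axis) for each of the 11 H2B probe sets tested (rows). DFO is left and Dp44mT right, with circles for set 1 and triangles for set 2. Arrays are paired by set number alone. In Dp44mT, 7 probe sets lie below 0 in both sets, and 1 of the probe sets that list 5 H2B genes lies below 0 in set 1 and above 0 in set 2.

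H2A probe sets were spread on both sides of 0. H2AC4 read 6.13 and 5.75 in DFO, 6.10 and 5.25 in Dp44mT, and 6.69 and 6.37 in control. It stood at −0.59 in DFO (SE 0.35, adjusted p = 0.625) and −0.85 in Dp44mT (SE 0.35, adjusted p = 0.236). H2AC14 stood at −0.44 and −0.31 (adjusted p = 0.54 and 0.402). H2AC25, of the small histone cluster on chromosome 1, stood at −0.17 in DFO and −0.60 in Dp44mT in its first probe set (adjusted p = 0.801 and 0.2) and at 0.05 and 0.22 in its second.

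H2AC15 had the largest positive values of any histone, but its arrays did not separate by treatment. It read 7.06 and 8.41 in DFO, 7.03 and 8.98 in Dp44mT, and 7.25 and 5.80 in control. The set 1 arrays of all 3 groups were close together, and the second control array was the lowest. The differences of 1.21 and 1.48 (SE 0.86 each, adjusted p = 0.684 and 0.358) were −0.19 and −0.22 within set 1, and 2.61 and 3.18 within set 2. Another H2AC15 probe set, below the filter, stood at 0.02 and −0.17. This gene was named after its values were seen. The order of arrays counted next had both set 2 chelator arrays above all others and the second control array the lowest. Of 7 fibroblast markers found, 3 (COL1A2, COL3A1 and DCN) showed this order. So did PECAM1 of 6 endothelial markers, 0 of 5 leukocyte markers and 6.98% of all probe sets tested. Among the 49 histone probe sets, H2AC15 and H4C7 showed it (4.08%). COL1A2, a collagen chain, read 7.59 and 9.03 in DFO, 7.55 and 9.28 in Dp44mT, and 7.85 and 5.57 in control. The summed deposited intensity of the 7 markers ran from 1199 to 1544 in DFO, from 1273 to 1359 in Dp44mT and from 919 to 1423 in control. None was at 0, and PDGFRB was below the filter. The part of other cells in the H2AC15 values was not tested.

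H3 had the narrowest range of the core histones, from −0.50 to 0.31 in DFO and from −0.31 to 0.77 in Dp44mT. H3C8 read 7.73 and 8.18 in DFO, 8.48 and 8.26 in Dp44mT, and 8.42 and 8.49 in control. It stood at −0.50 in DFO (SE 0.24, adjusted p = 0.535) and −0.09 in Dp44mT (adjusted p = 0.831). H3C2 stood at −0.31 and −0.12, and H3C3 at −0.20 and −0.31. H3C7 stood at 0.10 and −0.07. The tested H3C6 probe set lay above 0 in both comparisons, at 0.31 in DFO and 0.77 in Dp44mT (SE 0.49, limma adjusted p = 0.835 and 0.383). Its Dp44mT arrays read 6.22 and 7.37. Another H3C6 probe set, below the filter and untested, stood at −0.31 in DFO and −0.12 in Dp44mT.

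H4, the most conserved histone, is covered by many probe sets with several symbols. H4C13 read 6.64 and 6.33 in DFO, 6.30 and 6.02 in Dp44mT, and 7.10 and 7.16 in control. All 4 chelator arrays lay below both control arrays, which were nearly equal. Its difference was −0.65 in DFO (SE 0.22, interval −1.20 to −0.10, adjusted p = 0.377) and −0.97 in Dp44mT (SE 0.22, interval −1.52 to −0.42, adjusted p = 0.0969). A probe set that lists 14 H4 genes read 11.14 and 11.12 in DFO, 10.95 and 11.08 in Dp44mT, and 11.74 and 11.25 in control. It stood at −0.37 and −0.48 (SE 0.23 each, adjusted p = 0.656 and 0.3), with deposited intensities of 3018 and 1545 in DFO, 2257 and 1171 in Dp44mT, and 3781 and 3583 in control. Another probe set with the same 14 symbols showed how far arrays of 1 group could part: it read 8.03 and 4.49 in Dp44mT, 7.21 and 5.94 in DFO, and 7.67 and 7.44 in control. Of the 8 H4 probe sets tested, 3 lay above 0 in each comparison. H4C7 stood at 0.50 in DFO and 0.78 in Dp44mT (SE 0.48, limma adjusted p = 0.749 and 0.377), with both Dp44mT arrays above both control arrays. These differences were −0.01 and 0.20 within set 1, and 1.01 and 1.36 within set 2. A probe set that lists H4C7 and H4C6, below the filter and untested, stood at −0.69 in DFO and −1.09 in Dp44mT. H4C5 stood at 0.24 and 0.75, H4C4 at 0.30 and −0.06, and H4C9 at −0.14 and 0.14. Within set 1 the H4C5 differences were −0.86 in DFO and −0.39 in Dp44mT, and within set 2 they were 1.33 and 1.90. The other 8 of the 16 H4 probe sets were below the filter.

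The 29 histone probe sets below the filter had means between 4.25 and 5.45, with a median deposited intensity of 17.3, close to the pseudocount of 16. They comprised 2 H1, 5 H2A, 9 H2B, 4 H3 and 8 H4 probe sets and 1 that lists both H3 and H2A genes. Their values add little, because the pseudocount compresses differences near it. In the all-probe-set fit without a filter, 0 of the 78 passed in either chelator (smallest adjusted p = 0.161 in DFO and 0.0803 in Dp44mT). At an unadjusted p under 0.05, 5 were lower and 0 higher in DFO, beside 5.31% and 4.13% of all probe sets, and 12 were lower and 2 higher in Dp44mT, beside 12.5% and 6.03%.

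The direct comparison of Dp44mT with DFO called 0 of 49 histone probe sets, and 0% of all 40960 passed. At an unadjusted p under 0.05, 1 histone probe set passed, the first of H1-7 (1.37, SE 0.45, limma adjusted p = 0.969), beside 3.3% of all probe sets (1.06% higher and 2.24% lower in Dp44mT). The doses differed, 25 µM Dp44mT and 250 µM DFO, so the values stand side by side only. The H1 median was 0.33 and the H2B median −0.21 in Dp44mT against DFO. For H2BC12 the difference was −0.72 and for H1-10 it was −0.02, with an interval of −0.59 to 0.55.

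Genes that make, process and carry histones were taken from 4 lists, and 0 members of any list passed in limma in either chelator. Of 16 genes of histone gene transcription and pre-mRNA processing, 1 was higher and 1 lower in DFO at an unadjusted p under 0.05, and 1 was higher and 5 lower in Dp44mT. For these and the lists below, the shares of all probe sets were 5.09% higher and 5.97% lower in DFO, and 7% higher and 14.5% lower in Dp44mT, so the DFO counts of 1 in a list of 16 to 20 were near the shares of all probe sets. ZNF473, a U7 snRNP-associated protein of histone 3′-end processing, read 7.95 and 7.72 in DFO, 8.35 and 8.14 in Dp44mT, and 7.12 and 6.99 in control. It stood at 0.78 in DFO and 1.19 in Dp44mT (SE 0.21 each, adjusted p = 0.265 and 0.0615). CSTF2T, a cleavage stimulation factor, stood at −1.41 and −1.91 (SE 0.41, adjusted p = 0.311 and 0.0901). CPSF3, the nuclease that cuts histone and other pre-mRNAs, stood at −0.82 and −1.27 (adjusted p = 0.477 and 0.129). SLBP, the stem-loop binding protein, stood at 0.27 and 0.03, and NPAT, the activator of histone transcription, at −0.10 and −0.27. The list medians were −0.21 in DFO and −0.25 in Dp44mT.

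The replacement variants had medians of −0.32 in DFO and −0.35 in Dp44mT over 8 genes. H2AX, the variant phosphorylated at DNA breaks, read 9.90 and 9.63 in DFO, 9.42 and 9.58 in Dp44mT, and 11.01 and 10.37 in control. It stood at −0.92 and −1.18 (SE 0.28, adjusted p = 0.329 and 0.103). MACROH2A2 stood at −0.49 and −1.50, and CENPA, the centromeric H3, at −0.71 and −0.57, neither passing (smallest adjusted p = 0.114). H2AZ1 and MACROH2A1 lay within 0.14 of 0 in both. Of the 8 genes, 2 were lower at an unadjusted p under 0.05 in each comparison, beside 5.97% of all probe sets in DFO and 14.5% in Dp44mT.

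The 19 histone chaperones, which escort histones to and from DNA, had medians of −0.38 in DFO and −0.46 in Dp44mT, with 1 and 6 lower and 0 higher at an unadjusted p under 0.05, beside 5.97% and 14.5% lower among all probe sets. RBBP7 stood at −0.58 and −0.95 (adjusted p = 0.406 and 0.0959), NASP, a chaperone of H3 and H4 and of linker histones, at −0.62 and −1.08, and HJURP, the CENPA chaperone, at −0.87 and −1.39. The 20 S phase and replication genes had medians of −0.12 and −0.52, with 1 and 7 lower and 0 higher, beside the same 5.97% and 14.5%. CCNA2, which encodes cyclin A2, stood at −1.15 and −1.64 (SE 0.36, adjusted p = 0.346 and 0.0932). RRM2, the iron-containing subunit of ribonucleotide reductase, stood at 0.29 in DFO and −0.83 in Dp44mT (SE 0.18, adjusted p = 0.647 and 0.0928), and PCNA, the replication clamp, at −0.40 and −0.87.

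**Figure D4:**
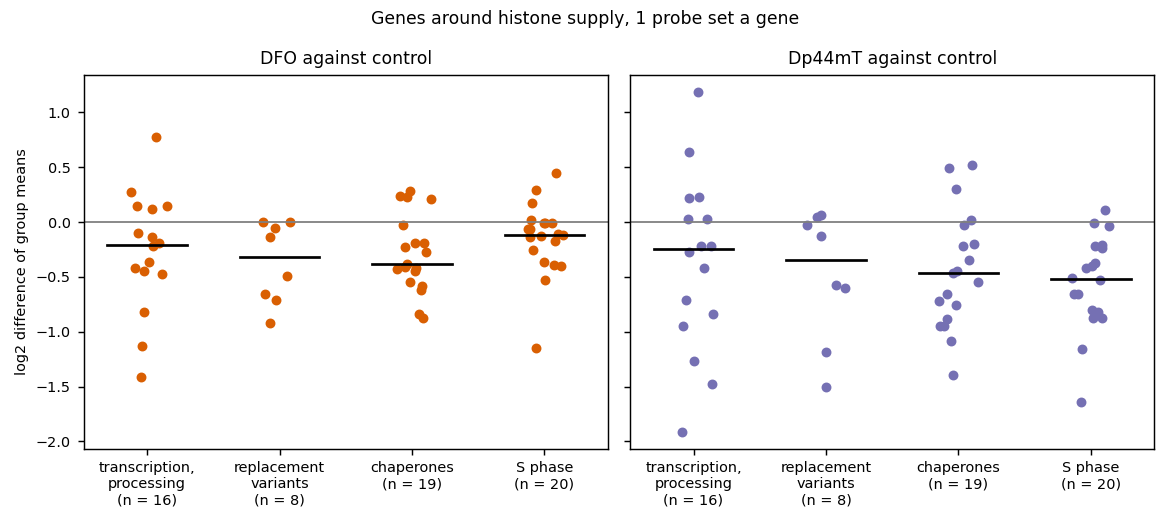
Log2 difference of group means (y axis) for genes of 4 lists around histone supply (x axis, 1 probe set a gene, the number tested under each name), DFO against control left and Dp44mT against control right. Black lines are list medians; the S phase list lies at −0.12 in DFO and −0.52 in Dp44mT, and no point passed the test.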

How the data were processed

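The authors deposited 1 linear intensity for each probe set and array. Per the submitters' processing notes, the software was Affymetrix Expression Console 1.1. The summarization and normalization are not given in the sources used here. From these intensities, log2(intensity + 16) was quantile normalised over 6 arrays and tested with limma 3.58.1 in R 4.3.3, two-sided, with 3 groups in 1 model (3 residual and 2.52 prior degrees of freedom) and no block. The 62 AFFX control probe sets were left out. Gene symbols came from the platform annotation. Means below the 25th percentile were not tested. The code was tested on simulated data. The number of arrays, 2 a group, limits the precision, and an exact permutation test cannot give a two-sided p below 0.333.

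The members, lists and tests were chosen with earlier results of these data known. The text names, for each histone type, the 2 probe sets with the smallest p in each chelator comparison. It adds further tested probe sets of those genes that differ in sign, and for each list up to 4 genes with the smallest p. SLBP, NPAT, H2AZ1, MACROH2A1 and all other histones were named after their values were seen. Sequences are from RefSeq. Alternatives covered scaling, pseudocount, filter, probe sets kept, variance model, block and arrays left out.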

Additional observations from a re-analysis of the deposited data

How the results depend on the processing

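The counts of histone probe sets called stayed at 0 in DFO and in Dp44mT against DFO under every alternative run. In Dp44mT the count was 1 with a pseudocount of 64, with a filter at the 50th percentile and with a variance trend (H1-10 each time), and 0 under the other settings but the crossed block below. Over all probe sets the calls ranged from 0 to 809 in DFO, against 241, and from 0 to 5796 in Dp44mT, against 670; both 0s came from leaving out a control array or an array of that chelator. With any single array left out the counts were 0 and 0 in both chelators, a setting in which 0 to 468 of all probe sets passed. With the set number as a replicate block the counts were 0, 0 and 0, and over all probe sets 207 in DFO and 1246 in Dp44mT passed. The deviations of same-numbered arrays correlated at −0.23 for DFO and control, −0.33 for Dp44mT and control and 0.83 for Dp44mT and DFO, so the 2 chelators' arrays deviated together by number and the control arrays did not follow them. With the control numbers crossed, an alternative chosen after seeing the data, 5 of 49 passed in Dp44mT, where 14.2% of all probe sets passed, and 0 in DFO, where 1.98% did. The 5 were H1-10, H2BC12L, H2BC12 and H4C13, all lower, and H2AC15, higher. The median difference of the histone probe sets was −0.44 in DFO, −0.51 in Dp44mT and −0.06 in Dp44mT against DFO on the deposited scale, where the medians of all probe sets were −0.30, −0.46 and −0.23. It was −0.04 in Dp44mT against DFO with the filter at the 50th percentile and −0.32 in DFO without both set 2 chelator arrays. With 1 array left out it ran from −0.32 to −0.17 in DFO, from −0.20 to 0.03 in Dp44mT and from −0.05 to 0.17 in Dp44mT against DFO. The H2B median stayed below 0 in both chelators under every alternative, from −1.06 to −0.34 in DFO and from −1.25 to −0.36 in Dp44mT.

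Directions turned in 7 named probe sets, none of which passed the test, and the cause was not tested. In DFO the first H1-7 probe set was −0.20 on the deposited scale, −0.01 with a pseudocount of 64, −0.08 without both set 2 chelator arrays and between −0.43 and 0.44 with 1 array left out. The second H2AC25 probe set was −0.15 in DFO and −0.08 in Dp44mT on the deposited scale, −0.05 in DFO without both set 2 chelator arrays, and −0.06 to 0.16 with 1 array left out in DFO. H3C6 was −0.12 in DFO without those arrays, and −0.12 to 0.74 with 1 array left out. Without both set 2 chelator arrays H3C8 was 0.03 and H3C2 0.08 in Dp44mT. With 1 array left out, H3C8 ran from −0.20 to 0.03 and H3C2 from −0.31 to 0.08 in Dp44mT, and the second H1-7 probe set from −0.46 to 0.33 in DFO. The H2B probe set of 5 genes that differed in sign from its partner ran from −0.38 to 1.07 in DFO and from −0.16 to 1.29 in Dp44mT, the negative values without the second control array.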
